A study of Bos taurus with 12 samples.

Results

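The 10 genes THY1, FAP, PDGFRB, VIM, ACTA1, ACTA2, TAGLN, CNN1, MYL9 and TPM2 encode fibroblast surface proteins and parts of the contractile cytoskeleton. They were taken by symbol from the deposited raw count table through its Entrez identifiers, and each had 1 entry among 19285. All 10 passed the filter on low counts, as did 13920 genes in all. RNA sequencing of poly-A RNA was done on the wild-type bovine embryonic stem cell line F7, 12 libraries in all, with 3 in each group. Group MC carries the treatment label NC, and the others are 1/7MC, 1/7MC+Pyr and 1/7MC+Pyr+FGF. Feeder layers of low density, pyruvate and a recombinant human fibroblast growth factor (FGF) of the basic kind are named in the series title. Setting 1/7MC+Pyr against 1/7MC is called the Pyr comparison here, and setting 1/7MC+Pyr+FGF against 1/7MC+Pyr the FGF comparison. The labels give no meaning for MC, no dose or time, no origin of the feeder cells, and no word on whether feeders were removed before RNA was taken. Nothing states that replicates were separate cultures, so p-values measure the spread between these libraries, which may be technical.

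Fibroblasts are the matrix-making cells of connective tissue and serve as feeder layers for stem cells. THY1, FAP and PDGFRB sit on their surface, and VIM is their main intermediate filament protein. ACTA2, TAGLN, CNN1, MYL9 and TPM2 build or regulate smooth muscle actomyosin, which fibroblasts assemble when they become contractile myofibroblasts. ACTA1 is the actin of skeletal muscle. Serum response factor (SRF) drives many of these contractile genes, and transforming growth factor beta (TGF-beta) is a known inducer of the myofibroblast state.

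Total counts were 27373759 to 44440972 per library. Of the Entrez identifiers held by more than 1 entry, 53 carried differing counts in the MC libraries of replicates 2 and 3, where the remaining 10 libraries had 0, so those 2 libraries may have been counted with other gene models. Comparisons with MC were therefore also made with MC replicate 1 alone; that library then has no partner and is assumed to vary like libraries of the other groups. The mean of MC replicates 2 and 3 was 0.831 to 1.15 times the level of MC replicate 1 for 9 of the 10 genes, and 0.474 times for FAP, which had 5, 3 and 1 counts in the MC libraries. Among all genes tested, 19.4% lay beyond 1.5 times in either direction. The stem cell label was checked on 6 pluripotency markers: POU5F1, given as a defining gene and a core transcription factor of pluripotency, stood at 670 to 1389 CPM in the 12 libraries. CPM here are counts scaled to library size with trimmed-mean (TMM) factors.

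Most of the 10 genes were higher in 1/7MC than in MC. With edgeR's quasi-likelihood test at an adjusted p under 0.05, 8 were higher (THY1, FAP, PDGFRB, VIM, ACTA2, TAGLN, MYL9 and TPM2), ACTA1 was lower and CNN1 was not called. FAP passed the filter on low counts only through the groups other than MC, so its call is counted but is no support. Of all genes tested 45.0% were called in this comparison, 23.7% higher and 21.3% lower. The median log2 fold change was 0.91 over the 10 genes and 0.00 over all genes tested. With MC replicate 1 alone the same 8 were higher and ACTA1 lower, against 14.0% of all genes called higher and 9.96% lower, and the median was 0.86. For 9 of the 10 genes the 3 libraries of 1 group lay wholly outside the range of the other, as did those of 58.0% of all genes.

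**Figure D1:**
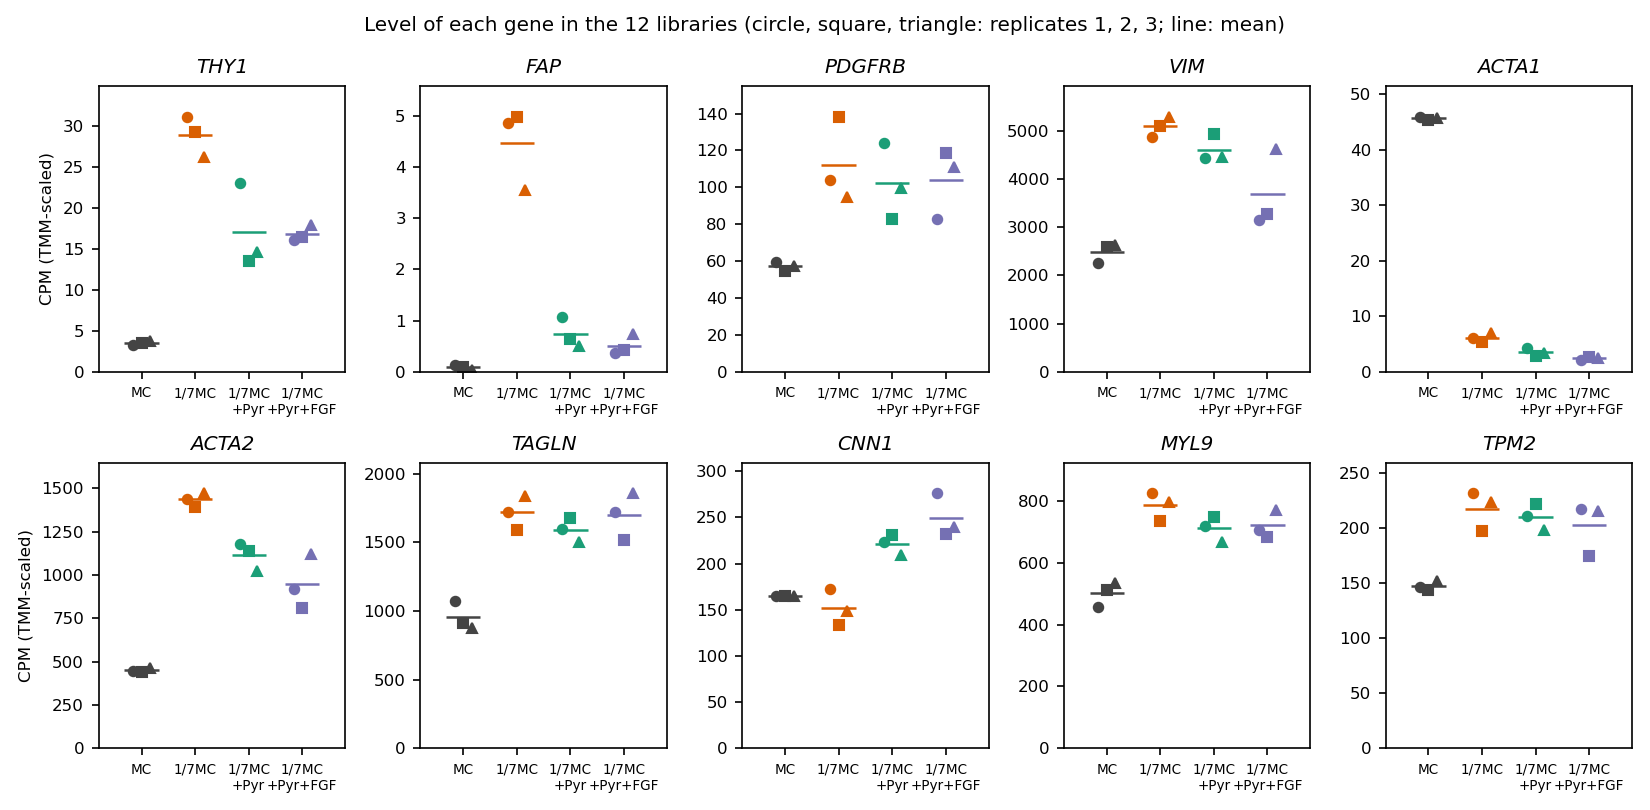
Level of each of the 10 genes in every library (y axis, TMM-scaled CPM; x axis, group; circle, square and triangle are replicates 1, 2 and 3; line, mean). ACTA1 is at 45.3 to 46.0 CPM in MC and at most 6.99 elsewhere, whereas THY1 and FAP are lowest in MC and highest in 1/7MC.

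THY1 (ENSBTAG00000019627) is a surface protein anchored in the membrane by a lipid. Its CPM were 3.28, 3.54 and 3.71 in the MC libraries, 31.2, 29.3 and 26.2 in those of 1/7MC, 23.1, 13.5 and 14.7 in those of 1/7MC+Pyr, and 16.0, 16.5 and 18.0 in those of 1/7MC+Pyr+FGF. MC lay lowest and 1/7MC highest, each clear of the other groups, while the 2 groups with Pyr overlapped. The log2 fold change (± SE, n = 3 libraries per group) was 3.04 ± 0.19 in 1/7MC against MC (adjusted p = 1.73e-07), and 3.15 ± 0.32 with MC replicate 1 alone. THY1 fell in 1/7MC+Pyr against 1/7MC by 0.76 ± 0.17 on the log2 scale (adjusted p = 0.00901). Without 1/7MC+Pyr replicate 3 that change was -0.66 (adjusted p = 0.0514). In the RefSeq gene table THY1 overlaps a long noncoding RNA gene, whose reads cannot be told apart without strand.

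FAP (ENSBTAG00000008140) is a surface protease of activated fibroblasts. It was the least abundant of the 10 genes. Its CPM were 0.140, 0.0957 and 0.0371 in the MC libraries, 4.86, 4.98 and 3.55 in those of 1/7MC, 1.06, 0.632 and 0.497 in those of 1/7MC+Pyr, and 0.375, 0.423 and 0.737 in those of 1/7MC+Pyr+FGF. The order was that of THY1, with 1/7MC far above the rest and the 2 groups with Pyr overlapping. The 3 1/7MC libraries held 455 counts and the 3 MC libraries 9, a ratio per depth of 46.6 (95% exact interval 24.3 to 103, counting error only). Against MC replicate 1 alone the ratio was 31.9 (13.6 to 98.6). The log2 fold change of FAP in 1/7MC against MC was 5.50 ± 0.44, and 4.97 with MC replicate 1 alone. FAP passed the filter on low counts only through the groups other than MC, so that difference is given with no test. It fell by 2.61 ± 0.33 on the log2 scale from 1/7MC to 1/7MC+Pyr (adjusted p = 0.00021).

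PDGFRB (ENSBTAG00000002804) is the beta receptor for platelet-derived growth factor (PDGF), found on fibroblasts and pericytes. Its CPM were 59.5, 54.8 and 57.4 in the MC libraries, 104, 138 and 94.7 in those of 1/7MC, 124, 82.9 and 99.6 in those of 1/7MC+Pyr, and 82.8, 119 and 111 in those of 1/7MC+Pyr+FGF. MC was lowest, and the other 3 groups overlapped. The log2 fold change was 0.97 ± 0.18 in 1/7MC against MC (adjusted p = 0.000771). It was -0.14 (95% interval -0.52 to 0.24) in the Pyr comparison, and 0.04 there without 1/7MC replicate 2. PDGFRB overlaps a microRNA gene in the same gene table.

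VIM (ENSBTAG00000018463) encodes vimentin and was the most abundant of the 10 genes. Its CPM were 2251, 2579 and 2619.5 in the MC libraries, 4873, 5097 and 5291 in those of 1/7MC, 4433, 4932 and 4453 in those of 1/7MC+Pyr, and 3145, 3276 and 4612 in those of 1/7MC+Pyr+FGF. MC was clear of the other groups, and replicate 3 of the FGF group stood with the 1/7MC+Pyr libraries rather than with its own. The log2 fold change was 1.03 ± 0.14 in 1/7MC against MC (adjusted p = 6.31e-05). VIM was lower in 1/7MC+Pyr+FGF than in 1/7MC, with a log2 fold change of -0.47 ± 0.13 (adjusted p = 0.0218). That call was lost when 1/7MC replicate 2 (adjusted p = 0.0514), 1/7MC replicate 3 (0.0683), 1/7MC+Pyr+FGF replicate 1 (0.0777) or 1/7MC+Pyr+FGF replicate 2 (0.0712) was left out. Fitting only those 2 groups also lost it (adjusted p = 0.0626).

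Actin genes moved in opposite directions. ACTA2 (ENSBTAG00000014614), the smooth muscle alpha-actin that marks myofibroblasts, stood at 444, 441 and 466 CPM in the MC libraries, 1442, 1395 and 1473 in those of 1/7MC, 1181, 1142 and 1025 in those of 1/7MC+Pyr, and 920, 810 and 1121 in those of 1/7MC+Pyr+FGF. MC and 1/7MC formed the bottom and the top, and the 2 groups with Pyr lay between and overlapped. The log2 fold change of ACTA2 was 1.67 ± 0.11 in 1/7MC against MC (adjusted p = 3.01e-07), and -0.36 ± 0.11 in 1/7MC+Pyr against 1/7MC (adjusted p = 0.0375). That second call was lost without 1/7MC replicate 1 (adjusted p = 0.0968), 1/7MC replicate 2 (0.0576), 1/7MC replicate 3 (0.114), 1/7MC+Pyr replicate 2 (0.0647) or 1/7MC+Pyr replicate 3 (0.156). ACTA2 was also lower in 1/7MC+Pyr+FGF than in 1/7MC, at -0.60 ± 0.11 (adjusted p = 0.00189).

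ACTA1 (ENSBTAG00000046332), the skeletal muscle alpha-actin, was the 1 gene of the 10 lower in every other group than in MC. Its CPM were 46.0, 45.3 and 45.7 in the MC libraries, 6.07, 5.38 and 6.99 in those of 1/7MC, 4.35, 2.82 and 3.30 in those of 1/7MC+Pyr, and 2.06, 2.63 and 2.55 in those of 1/7MC+Pyr+FGF. The 4 groups did not overlap, and MC replicate 1 stood beside MC replicates 2 and 3. ACTA1 fell by 2.89 ± 0.16 on the log2 scale in 1/7MC against MC (adjusted p = 6.45e-08), which is 7.43-fold lower. It fell by a further 0.82 ± 0.16 in 1/7MC+Pyr against 1/7MC (adjusted p = 0.00441). The next step, 1/7MC+Pyr+FGF against 1/7MC+Pyr, was -0.53 ± 0.17 and not called (adjusted p = 0.124). Over the whole span, 1/7MC+Pyr+FGF against MC, the log2 fold change was -4.24 ± 0.17 (adjusted p = 2.69e-08).

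The actins are near-identical copies, and how reads shared between them were counted is not given in the sources used here, so their levels are uncertain. Per length, the cytoplasmic actins ACTB and ACTG1 made up 43.6% ± 1.37 and 47.6% ± 0.95 (SD, n = 3) of the summed level of 6 actin genes in MC. The share of ACTA2 was 3.70% ± 0.27 in MC, 10.9% ± 0.38 in 1/7MC, 9.24% ± 0.57 in 1/7MC+Pyr and 7.77% ± 1.30 in 1/7MC+Pyr+FGF. The share of ACTA1 was 0.483% ± 0.043 in MC and 0.0594% ± 0.0044 in 1/7MC, and it was 0.0252% ± 0.0017 in 1/7MC+Pyr+FGF. ACTC1, the cardiac alpha-actin, went from 3.12% ± 0.13 in MC to 6.72% ± 0.51 in 1/7MC+Pyr+FGF. ACTC1 rose in 1/7MC against MC (0.59 ± 0.09, adjusted p = 0.000284) and again in 1/7MC+Pyr against 1/7MC (0.43 ± 0.09, adjusted p = 0.00675). ACTG2, the smooth muscle gamma-actin, did the reverse of ACTA2: it fell in 1/7MC against MC by 0.55 ± 0.09 on the log2 scale (adjusted p = 0.000342) and rose in 1/7MC+Pyr against 1/7MC by 0.64 ± 0.09 (adjusted p = 0.000449). ACTB and ACTG1 were not called in either comparison. These 4 further actins were named after their values were seen.

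**Figure D2:**
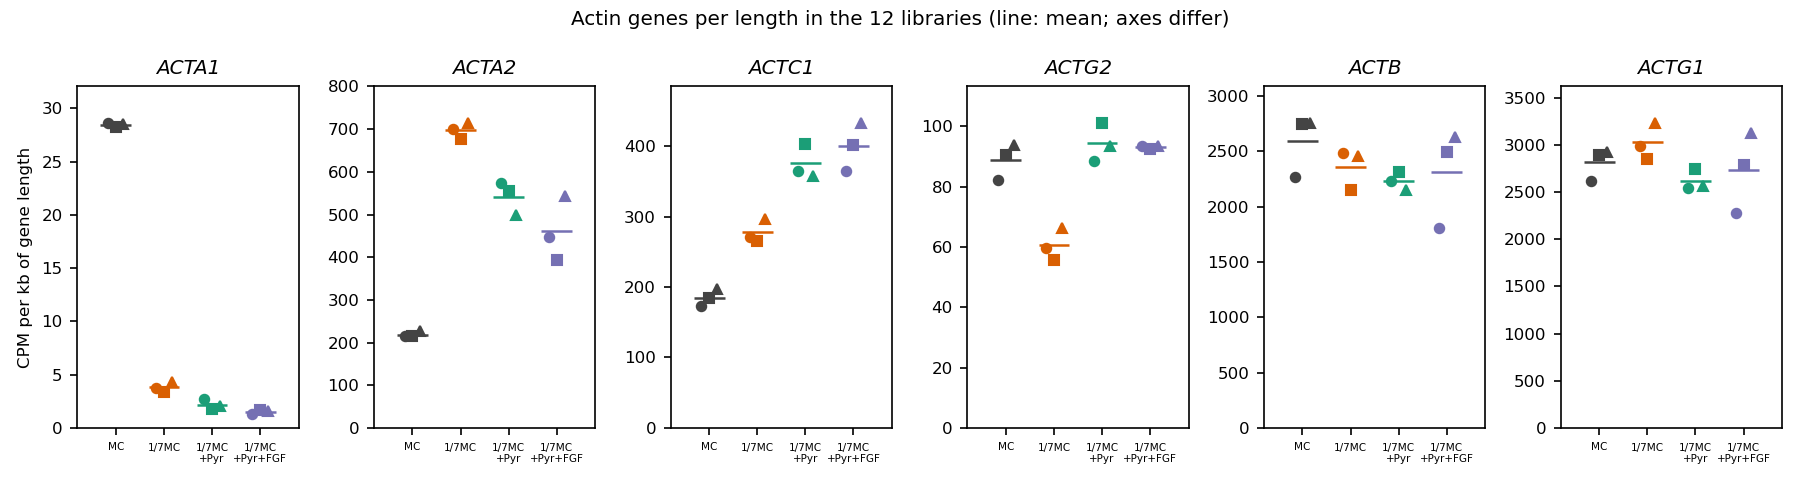
Level per length of 6 actin genes in every library (y axis, TMM-scaled CPM per kb of the gene length the authors list; x axis, group; circle, square and triangle are replicates 1, 2 and 3; line, mean; each panel has its own axis). ACTA1 falls from 28.5 in MC to 1.505 in 1/7MC+Pyr+FGF on average, whereas ACTC1 goes from 185 to 399.8.

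TAGLN (ENSBTAG00000007196), the actin-bundling protein transgelin, stood at 1074, 910 and 875 CPM in the MC libraries, 1720, 1591 and 1840 in those of 1/7MC, 1594, 1675 and 1503 in those of 1/7MC+Pyr, and 1720, 1514 and 1858 in those of 1/7MC+Pyr+FGF. MC was lowest and the other 3 groups overlapped. The log2 fold change in 1/7MC against MC was 0.85 ± 0.11 (adjusted p = 5.03e-05), and 0.69 ± 0.16 with MC replicate 1 alone (adjusted p = 0.00764).

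MYL9 (ENSBTAG00000011473), the regulatory light chain of smooth muscle myosin, stood at 459, 513 and 534 CPM in the MC libraries, 826, 737 and 798 in those of 1/7MC, 719, 748 and 668 in those of 1/7MC+Pyr, and 707, 684 and 772 in those of 1/7MC+Pyr+FGF. It rose by 0.65 ± 0.09 in 1/7MC against MC (adjusted p = 0.000101). TPM2 (ENSBTAG00000011424), beta-tropomyosin, which lies along the actin filament, stood at 147, 144 and 152 CPM in the MC libraries, 232, 197 and 223 in those of 1/7MC, 211, 222 and 199 in those of 1/7MC+Pyr, and 217, 175 and 216 in those of 1/7MC+Pyr+FGF. It rose by 0.56 ± 0.10 in 1/7MC against MC (adjusted p = 0.000705). For each of MYL9 and TPM2, MC was clear below the other 3 groups, which overlapped one another.

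CNN1 (ENSBTAG00000011207), calponin, which binds actin and slows its myosin, differed from the rest in where it changed. Its CPM were 165, 165 and 164 in the MC libraries, 173, 133 and 148 in those of 1/7MC, 223, 231 and 210 in those of 1/7MC+Pyr, and 276, 232 and 240 in those of 1/7MC+Pyr+FGF. MC and 1/7MC overlapped, with a log2 fold change of -0.12 (95% interval -0.34 to 0.10, adjusted p = 0.36). CNN1 rose by 0.55 ± 0.10 in 1/7MC+Pyr against 1/7MC (adjusted p = 0.00314) and was the 1 gene of the 10 to do so. It was also higher in 1/7MC+Pyr+FGF than in 1/7MC, by 0.72 ± 0.10 (adjusted p = 0.000323).

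Compared per length, the order of the genes in MC was VIM (1343 CPM per kb), TAGLN (762), MYL9 (421), ACTA2 (219), CNN1 (113), TPM2 (63.8), ACTA1 (28.5), PDGFRB (9.74), THY1 (1.82) and FAP (0.027). In 1/7MC ACTA2 (698) and MYL9 (661) differed by less than the SD of MYL9 (38.1), and ACTA1 (3.83) was below PDGFRB (19.1) and THY1 (15.0). With both additions ACTA1 (1.505) stood above FAP (0.152) and below the other 8.

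The Pyr comparison called 5 of the 10 genes. THY1, FAP, ACTA1 and ACTA2 were lower and CNN1 was higher. Of all genes tested 18.1% were called (8.08% higher, 10.1% lower), and the median log2 fold change was -0.14 over the 10 genes and -0.01 over all. The libraries of both groups did not overlap for those 5 genes, nor for 37.5% of all genes. The intervals for the genes not called were -0.43 to 0.15 for VIM, -0.34 to 0.12 for TAGLN, -0.34 to 0.05 for MYL9 and -0.27 to 0.17 for TPM2. Without 1/7MC+Pyr replicate 3, 3 genes were called, with THY1 and ACTA2 lost. The share of all genes called was 11.7% without 1/7MC replicate 1 and 10.4% without 1/7MC replicate 3. It was 10.1% without 1/7MC+Pyr replicate 3.

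None of the 10 genes was called in the FGF comparison, by edgeR or by DESeq2, where 2.76% of all genes were called by edgeR (0.639% higher, 2.12% lower). That share was 0.898% without 1/7MC+Pyr replicate 1, 1.01% without 1/7MC+Pyr replicate 3, 1.05% without 1/7MC+Pyr+FGF replicate 1 and 1.69% without 1/7MC+Pyr+FGF replicate 2. At an unadjusted p under 0.05, 2 were lower, VIM (-0.32) and ACTA1 (-0.53). Libraries of the pair of groups did not overlap for ACTA1 and CNN1, 2 of the 10 genes, against 21.5% of all genes. Without 1/7MC+Pyr+FGF replicate 3, VIM was called lower (-0.52, adjusted p = 0.0252). The 95% intervals were narrowest for MYL9 (-0.18 to 0.22) and TPM2 (-0.27 to 0.16). They were wider for THY1 (-0.39 to 0.35) and PDGFRB (-0.35 to 0.41), and widest for FAP (-1.32 to 0.29).

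With both additions, 1/7MC+Pyr+FGF against 1/7MC, 5 genes were lower (THY1, FAP, VIM, ACTA1 and ACTA2) and CNN1 was higher, where 27.6% of all genes were called (11.9% higher, 15.7% lower). For 6 of the 10 genes the libraries did not overlap, against 46.1% of all genes. THY1 fell by 0.78 ± 0.17 (adjusted p = 0.00535) and FAP by 3.12 ± 0.34 on the log2 scale (adjusted p = 4.38e-05). This comparison shares its 1/7MC libraries with the Pyr comparison.

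**Figure D3:**
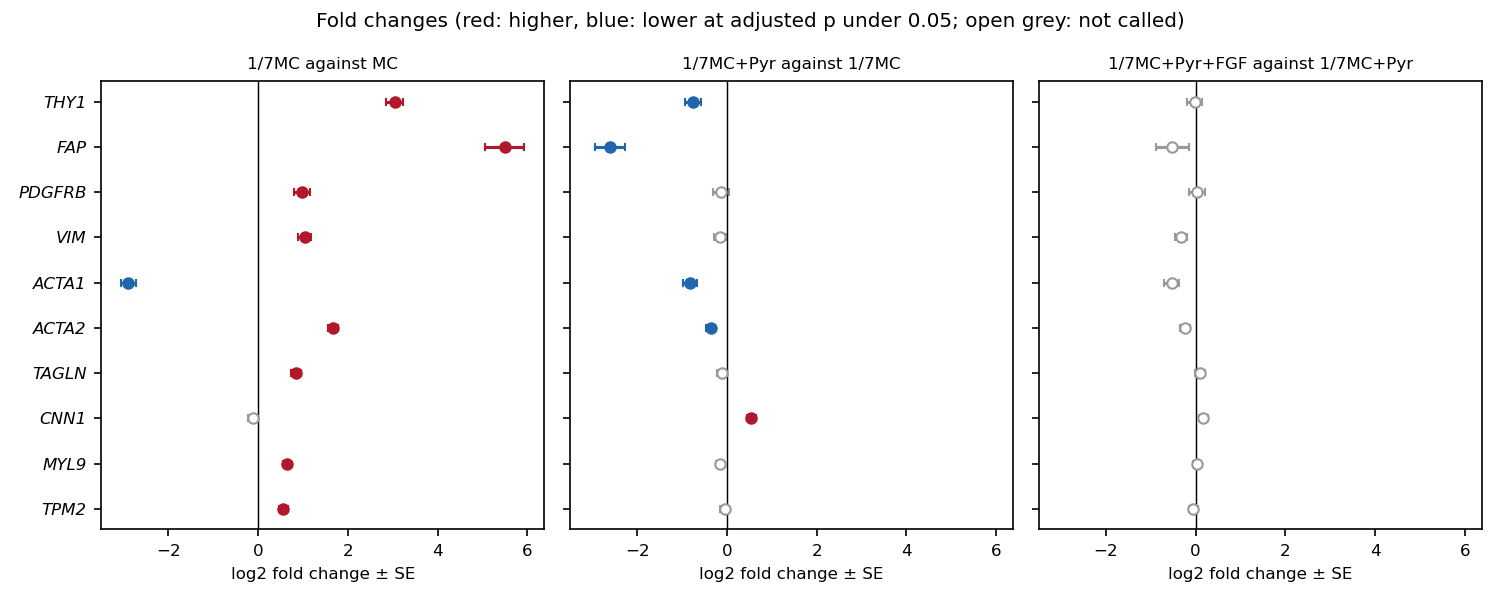
Log2 fold change of each gene in 3 comparisons (x axis, log2 fold change from edgeR; bars, ± SE, n = 3 libraries per group; red, higher and blue, lower at an adjusted p under 0.05; open grey, not called). The panel of 1/7MC against MC holds 8 red points and 1 blue, that of 1/7MC+Pyr against 1/7MC holds 1 red and 4 blue, and the FGF panel holds none.

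All 10 genes differed between 1/7MC+Pyr and MC, 9 higher and ACTA1 lower, where 28.4% of all genes were called (15.2% higher, 13.2% lower). The same count was found in 1/7MC+Pyr+FGF against MC, where 32.5% of all genes were called (17.1% higher, 15.4% lower). FAP is among the 9 higher in each, with the limit of the filter given above. Ranges of the libraries were apart for 10 of 10 genes in each, as they were for 43.1% of all genes in 1/7MC+Pyr and 44.2% in 1/7MC+Pyr+FGF. THY1 was still higher than in MC by 2.28 ± 0.19 in 1/7MC+Pyr and by 2.26 ± 0.19 in 1/7MC+Pyr+FGF, and ACTA2 by 1.31 ± 0.11 and 1.08 ± 0.11. These 2 comparisons and that of 1/7MC share the MC libraries. The share of all genes called fell without MC replicate 2 to 18.2% in 1/7MC+Pyr and 21.4% in 1/7MC+Pyr+FGF. Without MC replicate 3 it fell to 18.6% in 1/7MC+Pyr and 22.1% in 1/7MC+Pyr+FGF. Without MC replicate 1 it rose instead, to 36.5% in 1/7MC+Pyr and 37.8% in 1/7MC+Pyr+FGF.

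With MC replicate 1 alone, 5 genes were higher and 1 lower in 1/7MC+Pyr (6.56% of all genes were called higher and 3.15% lower). Those lost were PDGFRB, CNN1 and TPM2, besides FAP, whose difference from MC is given with no test. For 1/7MC+Pyr+FGF 6 were higher and 1 lower (5.86% of all genes were called higher and 6.13% lower), with FAP (0.128), PDGFRB (0.0786) and TPM2 (0.088) lost. The fold changes of PDGFRB, CNN1 and TPM2 stayed close to those with 3 MC libraries, at 0.79, 0.44 and 0.54 in 1/7MC+Pyr, while FAP went from 2.89 to 2.37. For FAP the count ratio to MC replicate 1 was 5.19 (2.12 to 16.5) in 1/7MC+Pyr and 3.60 (1.45 to 11.5) in 1/7MC+Pyr+FGF. These intervals hold counting error only, without the spread between libraries, so they do not restore the lost calls.

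**Figure D4:**
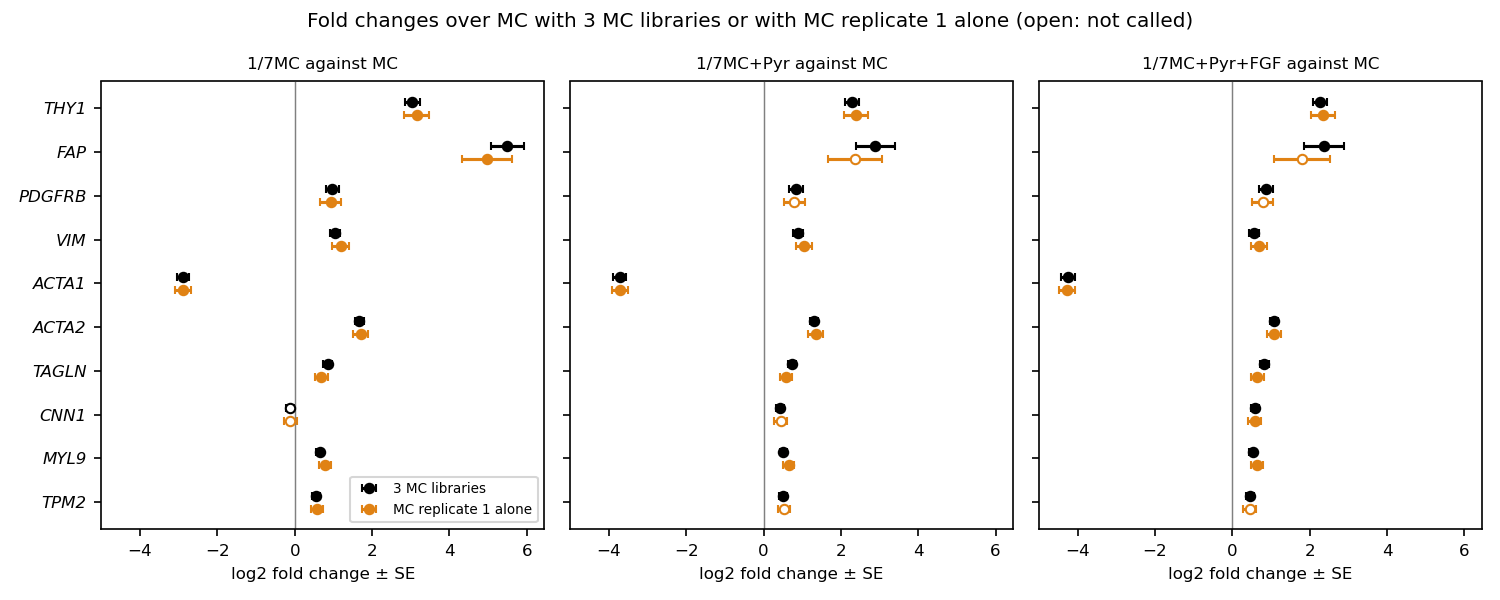
Log2 fold change over MC of each gene with 3 MC libraries (black) and with MC replicate 1 alone (orange), in 3 comparisons (x axis, log2 fold change; bars, ± SE; open, not called). Directions are the same in both fits, and the open orange points are the calls lost with 1 MC library together with CNN1 in 1/7MC.

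Companion genes were read in lists by role. Their counts stand beside the shares of all genes called, which were 23.7% higher and 21.3% lower in 1/7MC against MC (14.0% and 9.96% with MC replicate 1 alone), 8.08% and 10.1% in the Pyr comparison and 0.639% and 2.12% in the FGF comparison. Of 27 actomyosin partners tested, 9 were higher and 5 lower in 1/7MC against MC (median 0.12; 6 and 3 with MC replicate 1 alone), not far from the shares of all genes. SYNPO2, a protein of actin bundles, rose by 3.05 ± 0.21, or 2.89 with MC replicate 1 alone. TAGLN3, a neural relative of transgelin, rose by 1.90 ± 0.28, or 1.30 with that MC library alone. TAGLN2 rose by 1.01 ± 0.09, TPM4 by 0.58 ± 0.11 and CALD1, which regulates actomyosin, by 1.57 ± 0.18, or 1.14 with MC replicate 1 alone. As relatives or partners of the 10 genes, these 3 and TPM1, CNN2 and CNN3 were chosen after their values were seen. TPM1 stood at 340, 819 and 857 CPM in MC and at 402 to 419 in 1/7MC; it was called lower with 3 MC libraries (-0.70, adjusted p = 0.0346) and stood at 0.29 with MC replicate 1 alone (adjusted p = 0.16). The TPM1 call was also lost without any 1 of MC replicates 2 and 3 and the 3 1/7MC libraries (adjusted p = 0.0723 to 0.151). The calponins CNN2 and CNN3 were not called in any of the 3 successive comparisons. The Pyr comparison had 4 actomyosin partners higher and 2 lower (SYNPO2 -1.54 ± 0.19 and TAGLN3 -1.46 ± 0.27), and with FGF 0 were called by edgeR or by DESeq2, with 1 higher at an unadjusted p under 0.05.

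MYH11, the heavy chain of mature smooth muscle myosin, fell by 1.21 ± 0.22 on the log2 scale in 1/7MC against MC (adjusted p = 0.000831), where ACTA2 and TAGLN rose. Its mean was 10.8 ± 0.49 CPM in MC and 4.66 ± 1.68 in 1/7MC (SD, n = 3). It rose in 1/7MC+Pyr against 1/7MC by 0.83 ± 0.22 (adjusted p = 0.0221), a call lost without 1/7MC replicate 1 (adjusted p = 0.0947), 1/7MC replicate 3 (0.0981), 1/7MC+Pyr replicate 1 (0.0633) or 1/7MC+Pyr replicate 3 (0.0716).

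Of 13 SRF cofactors and targets, 4 were higher and 4 lower in 1/7MC against MC (median 0.18; 3 and 3, median -0.11, with MC replicate 1 alone). TGFB1I1, a focal adhesion protein, rose by 1.81 ± 0.13 and CCN2, a secreted growth factor, by 1.32 ± 0.13. SRF itself, named after its value was seen, fell by 0.58 ± 0.09 (adjusted p = 0.000219). In the Pyr comparison 3 were higher and 1 lower. CCN2 fell by 0.67 ± 0.13, and VCL, which links actin to adhesions, rose by 0.60 ± 0.15 (adjusted p = 0.0159). The VCL call was lost without 1/7MC replicate 1 (adjusted p = 0.0705), 1/7MC replicate 3 (0.0746) or 1/7MC+Pyr replicate 3 (0.0645). With FGF, TGFB1I1 fell by 0.55 ± 0.13 (adjusted p = 0.0411), and leaving out any of the libraries of those 2 groups except 1/7MC+Pyr+FGF replicate 3 took that call away (adjusted p = 0.0592 to 0.164).

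Ligands and relatives of the receptor PDGFRB were also read. Of 6 PDGF genes other than PDGFRB, 5 were higher and 0 lower in 1/7MC against MC (median 1.42; 4 and 0 with MC replicate 1 alone), with 0 lower also at an unadjusted p under 0.05 and by DESeq2. PDGFC rose by 2.90 ± 0.17 and PDGFD by 2.76 ± 0.21. PDGFRL, 1 of the 5 and named after its value was seen, was at 1.10 (adjusted p = 0.0357). Its call was lost without MC replicate 1 (adjusted p = 0.0729), MC replicate 3 (0.129) or 1/7MC replicate 1 (0.154). PDGFRA, the alpha receptor, averaged 1.72 ± 0.35 CPM over the MC libraries and 5.73 ± 0.40 over those of 1/7MC (SD, n = 3). Of the 6, 3 were lower in the Pyr comparison: PDGFRA (-1.71 ± 0.24), PDGFC (-0.87 ± 0.15) and PDGFD at -0.72 ± 0.19 (adjusted p = 0.0187). The PDGFD call was lost without 1/7MC replicate 1 (adjusted p = 0.0515), 1/7MC replicate 2 (0.0783), 1/7MC+Pyr replicate 1 (0.0581) or 1/7MC+Pyr replicate 2 (0.0692). PDGFA was the 1 gene higher there (0.50 ± 0.11), and PDGFRB itself was not called. The Pyr values of PDGFD and PDGFA were chosen after they were seen, to complete the counts.

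Among 9 other intermediate filament genes tested, 2 were higher and 2 lower in 1/7MC against MC, about the shares of all genes. Their median was -0.03, and 0.07 over 10 genes with MC replicate 1 alone. LMNA, a nuclear lamin, rose by 1.67 ± 0.12 and DES, the muscle filament desmin, by 1.60 ± 0.11. The Pyr comparison had 2 higher and 1 lower, with PRPH, a filament of peripheral neurons, at 0.97 ± 0.09 and LMNA at -0.58 ± 0.11. PRPH rose again with FGF, by 0.88 ± 0.09 (adjusted p = 0.000593), where VIM was not called.

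Of 20 other fibroblast genes, 18 were higher and 1 lower in 1/7MC against MC (median 2.102; 19 and 1 with MC replicate 1 alone). Their summed level was 4473 to 4641 CPM in MC, 15611 to 24824 in 1/7MC, 21276 to 36191 in 1/7MC+Pyr and 13666 to 20208 in 1/7MC+Pyr+FGF. Of the 20, 7 were higher and 3 lower in the Pyr comparison. COL6A3, a collagen VI chain, rose by 1.47 ± 0.26, and NT5E, a surface enzyme, fell by 1.93 ± 0.16. With FGF 0 were higher (also at an unadjusted p under 0.05) and 7 lower, among them COL6A3 at -1.75 ± 0.27 and COL6A2 at -1.06 ± 0.23. The COL6A2 call was lost without any 1 of 1/7MC+Pyr replicates 1 and 3 and 1/7MC+Pyr+FGF replicates 1, 2 and 3 (adjusted p = 0.0571 to 0.146). The summed level thus overlapped between 1/7MC and 1/7MC+Pyr, while THY1, FAP and ACTA2 were lower in 1/7MC+Pyr. In bulk RNA, fewer cells of a type and less RNA per cell cannot be told apart.

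Of 13 genes of TGF-beta ligands and response, 12 were higher and 0 lower in 1/7MC against MC (median 1.86; 10 and 0 with MC replicate 1 alone). By an unadjusted p under 0.05, 13 were higher and 0 lower. BAMBI, a decoy receptor, rose by 4.78 ± 0.19 and PMEPA1, a target gene, by 3.32 ± 0.17. From 1/7MC to 1/7MC+Pyr 2 were higher and 1 lower, with TGFBI, a matrix protein, at 0.98 ± 0.16 and BAMBI at -2.57 ± 0.17. With FGF 7 were lower and 1 higher, with PMEPA1 at -1.19 ± 0.16 and BAMBI at 1.07 ± 0.16. None of the 10 contractile and surface genes was called in that comparison.

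Markers of other cell types were summed beside these genes, and their part in the results was not tested. Of 10 striated muscle markers tested, 5 were called higher and 1 lower in 1/7MC against MC. The 5 include TNNT3 and the 10 include NKX2-5. Each passed the filter on low counts through 1/7MC alone, so this count is no support. DES is on this list as well as among the intermediate filaments. Its mean was 25.3 ± 1.13 CPM in MC and 76.6 ± 2.05 in 1/7MC (SD, n = 3). The list, DES included, summed to 132 to 149.9 CPM in MC and 217 to 242 in 1/7MC. It summed to 258 to 262 in 1/7MC+Pyr and 246 to 326 in 1/7MC+Pyr+FGF, while ACTA1 fell. MYOG and MYOD1 are given as defining factors, whatever their change: MYOG had 0 counts in all 12 libraries, and MYOD1 had 1 count in each of 2 libraries and 0 in the rest. TNNT3, a fast-muscle troponin and 1 of the 5, had 0 to 1 counts in the MC libraries, 19 to 26 in those of 1/7MC and 3 to 8 in those of 1/7MC+Pyr. It passed the filter on low counts through 1/7MC alone, so its difference from the other groups is given with no test. TNNC1, another troponin, was higher in 1/7MC+Pyr than in 1/7MC by 0.69 ± 0.19 (adjusted p = 0.0234), a call lost when any 1 of the 6 libraries compared other than 1/7MC+Pyr replicate 1 was left out (adjusted p = 0.0612 to 0.0845).

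Pericyte and vascular smooth muscle markers summed to 280.9 to 308.5 CPM in MC, 473 to 721 in 1/7MC, 397 to 634 in 1/7MC+Pyr and 308.9 to 458 in 1/7MC+Pyr+FGF. Of 7 tested, 3 were higher and 2 lower in 1/7MC against MC (median 0.61, and 0.33 with MC replicate 1 alone). ANGPT1, a vessel-stabilising ligand, was at 2.60 ± 0.25, and MYH11, which is also on this list, at -1.21 ± 0.22. The Pyr comparison had 1 higher, MYH11 at 0.83 ± 0.22 with the lost calls given above, and 1 lower, ANGPT1 at -1.18 ± 0.23. RGS5, likewise given as a defining pericyte gene, had 0 counts in 8 libraries and at most 6 in the others. Endothelial and blood markers were low, at 21.3 to 55.7 CPM in sum. Of 7 tested, 2 were called higher and 2 lower in 1/7MC against MC. The 2 called higher, EMCN and PECAM1, passed the filter through groups where they were high, so their count is no support. From MC to 1/7MC, EMCN, a surface sialoprotein, went from 0.165 ± 0.080 to 8.08 ± 1.29 CPM (SD, n = 3). PECAM1, of endothelial junctions, went from 0.0447 ± 0.026 to 0.483 ± 0.12 CPM. EMCN passed the filter only through the groups other than MC, and PECAM1 through 1/7MC alone. Their differences from MC too are given with no test. EMCN fell by 2.91 ± 0.22 in the Pyr comparison, and KDR, a receptor for vascular growth factor, rose by 1.30 ± 0.27. TEK, the angiopoietin receptor, rose with FGF by 0.65 ± 0.13 (adjusted p = 0.0232), a call lost without 1/7MC+Pyr replicate 1 (0.106), 1/7MC+Pyr replicate 3 (0.0590), 1/7MC+Pyr+FGF replicate 1 (0.0589) or 1/7MC+Pyr+FGF replicate 2 (0.0600).

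Neural and eye markers summed to 879 to 1063 CPM in MC and 1217 to 1395 in 1/7MC, with 4 of 7 higher and 2 lower (4 and 0 with MC replicate 1 alone). SIX6, an eye-field factor, rose by 3.56 ± 0.25 and PAX6, which acts in the eye and brain, by 1.70 ± 0.21. Of these 7, 5 were lower and 0 higher in the Pyr comparison (0 higher also at an unadjusted p under 0.05), among them SIX6 (-4.94 ± 0.28) and RAX (-3.69 ± 0.29). Pluripotency markers summed to 3892 to 4019 CPM in MC, 2337 to 2660 in 1/7MC and 3906 to 4174 in 1/7MC+Pyr. In 1/7MC+Pyr+FGF the sum was 3232 to 3655. Of 6 markers, 5 were lower in 1/7MC against MC (median -0.67, and -0.63 with MC replicate 1 alone). All 6 were higher in 1/7MC+Pyr against 1/7MC. LIN28A, an RNA-binding protein, was at -0.90 ± 0.10 and SALL4 at -0.74 ± 0.12 in 1/7MC against MC. In the Pyr comparison PRDM14 rose by 0.91 ± 0.09 and NANOG by 0.85 ± 0.15, and with FGF DNMT3B fell by 0.54 ± 0.09 (adjusted p = 0.0073).

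**Figure D5:**
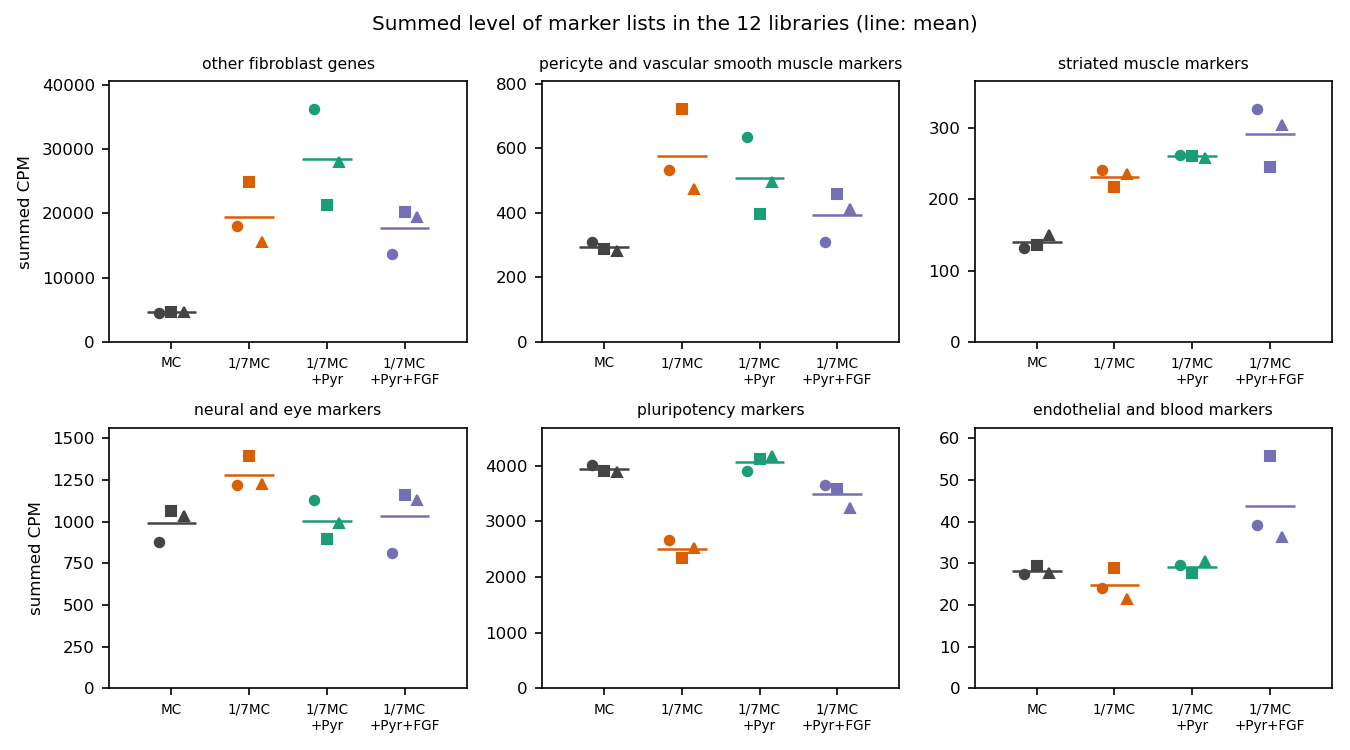
Summed level of 6 marker lists in every library (y axis, summed TMM-scaled CPM; x axis, group; circle, square and triangle are replicates 1, 2 and 3; line, mean; each panel has its own axis). Other fibroblast genes lie at 4473 to 4641 CPM in MC and at 13666 or more in the other groups, and pluripotency markers are lowest in 1/7MC, at 2337 to 2660 CPM.

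The gene with the pattern most like each of the 10, by Pearson's r of log2 CPM over the 12 libraries, is given as a description; the libraries share 4 group means, so high values are common. For THY1 it was ADCY2, an adenylate cyclase (r = 0.988), and for FAP it was INPP4B, a lipid phosphatase (0.990). NRP1, a receptor for semaphorins and vascular growth factors, was closest to PDGFRB (0.978), and RCAN1, a calcineurin regulator, to VIM (0.985). For ACTA1 it was FOS, an immediate early factor (0.990), and for ACTA2 it was ANXA5, a membrane-binding annexin (0.992). For TAGLN it was NCS1 (0.975), for CNN1 AKAP8 (0.980), for MYL9 TAGLN2 (0.985) and for TPM2 TMSB10, which binds actin monomers (0.977). Without MC replicates 2 and 3, over 10 libraries, these values were 0.944 to 0.989. Over those 10 libraries another gene was closer than the one named for FAP (CDH8, 0.987) and VIM (FILIP1L, 0.983). The same held for TAGLN (SPATS2L, 0.955) and CNN1 (TMEM120A, 0.984).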

How the data were processed

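Poly-A RNA was selected, fragmented and made into libraries with a kit for which no strand-marking step is given, per the labels' protocols. The submitters' processing notes name fastp 0.19.7, HISAT2 2.1.0, Subread 2.0, featureCounts and the build bosTau9, without order, settings or annotation. The deposited table holds whole-number counts per gene, not normalised by the authors. A second table deposited under the name TPM holds a signal that is the count over the listed gene length times 1 constant in all libraries, with no depth correction. A TPM had been planned for, so this signal served as an alternative, tested with limma 3.58.1 on log2 values with pseudocounts of 1 and 0.1.

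Of 19285 entries, 400 sharing an identifier were left out (1.07% to 1.40% of a library's counts), leaving 18885, of which 18803 had a symbol. Entrez identifiers matched 19195 entries to a RefSeq gene table of ARS-UCD2.0, another build than bosTau9, so no coordinates are given. Overlaps with other genes come from that table.

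Counts were tested with edgeR 4.0.16 (R 4.3.3): filterByExpr, TMM, a model of 1 mean per group over 12 libraries with a quasi-likelihood F test, and Benjamini-Hochberg adjustment over all 13920 genes tested (14361 with MC replicate 1 alone). Adjusted p-values come from edgeR where no other tool is given. SE is the log2 fold change over the square root of F. FAP and EMCN passed the filter through the groups where they were higher than in MC, and CDH5 with no MC library at its cutoff. TNNT3, PECAM1 and NKX2-5 passed it through 1/7MC alone. The 6 pairs of groups were compared. Each alternative is given in the closing section. DESeq2 1.42.0 was run as another tool, and the scripts were tested on simulated data. Figures were drawn with matplotlib 3.10.9 in Python 3.11.15.

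The 10 genes and the companion lists were chosen with earlier results of these data known. From each list the 2 genes with the largest absolute fold change among those called in each of the 3 successive comparisons are named. Further genes are marked where named, and the defining markers of a cell type are given whatever their change.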

Additional observations from a re-analysis of the deposited data

How the results depend on the processing

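With 16 or 17 settings per fold change, 990 comparisons set a gene of the 10 against its main value. Of these, 963 kept the direction, 33 lost the call and 1 gained it. Settings included relative log expression size factors, no filter or a stricter filter on low counts, and a fit of only the 2 groups compared. That 2-group fit lost VIM in 1/7MC+Pyr+FGF against 1/7MC (adjusted p = 0.0626) and TGFB1I1 in 1/7MC+Pyr+FGF against 1/7MC+Pyr (0.085). In 1/7MC against MC it lost TPM1 (0.123) and PDGFRL (0.0539). Leaving out 1 library at a time gave 9 of the 10 genes called in 1/7MC against MC, 3 to 5 in 1/7MC+Pyr against 1/7MC, 0 to 1 in 1/7MC+Pyr+FGF against 1/7MC+Pyr, 5 to 6 in 1/7MC+Pyr+FGF against 1/7MC and 10 in each of the other 2 comparisons with MC. With MC replicate 1 alone 6 were called in 1/7MC+Pyr against MC. In the signal as deposited, 2 were called in 1/7MC+Pyr against 1/7MC and 5 in 1/7MC+Pyr against MC; that signal moved the median of all genes in 1/7MC+Pyr+FGF against 1/7MC+Pyr from 0.01 to 0.12, with no correction for depth.

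The 27 reversals were all of values not called. Leaving out 1 library at a time gave values from -0.301 to 0.0376 for PDGFRB in 1/7MC+Pyr against 1/7MC, and from -0.214 to 0.0696 for PDGFRB and -0.0863 to 0.0600 for TAGLN in 1/7MC+Pyr+FGF against 1/7MC. For 1/7MC+Pyr+FGF against 1/7MC+Pyr these were -0.162 to 0.258 for THY1, -0.0988 to 0.192 for PDGFRB, -0.0313 to 0.0586 for MYL9 and -0.107 to 0.0431 for TPM2. Total counts alone gave -0.0048 for MYL9 there. The signal as deposited gave 0.163 for THY1, 0.0250 for ACTA2 and 0.194 for TPM2 in that comparison, and 0.00455 for PDGFRB, 0.102 for TAGLN and 0.0151 for TPM2 in 1/7MC+Pyr+FGF against 1/7MC. The rescaled signal gave -0.0488 for PDGFRB, -0.0104 for TAGLN and -0.0801 for MYL9 with a pseudocount of 1, and -0.0653, -0.0104 and -0.0809 with 0.1, all in 1/7MC+Pyr+FGF against 1/7MC+Pyr. The cause was not tested. Of 68 companion fold changes under the same alternatives, added after the data were seen, 1039 of 1119 values kept their call and 1 reversed, TPM1 at 0.29 with MC replicate 1 alone.

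Replicate numbers were shared between groups, but same-numbered libraries did not deviate together in every pair of any comparison (correlations -0.32 to 0.33), so the numbers were not taken to pair them. In 1/7MC+Pyr+FGF against 1/7MC, 5 of 6 libraries correlated best with their own number. With the replicate number as a block, 9, 4, 0, 6, 10 and 10 genes were called in 1/7MC against MC, 1/7MC+Pyr against 1/7MC, 1/7MC+Pyr+FGF against 1/7MC+Pyr, 1/7MC+Pyr+FGF against 1/7MC, 1/7MC+Pyr against MC and 1/7MC+Pyr+FGF against MC, ACTA2 being lost in the second (adjusted p = 0.0589). THY1 was at 0.00215 under the block in 1/7MC+Pyr+FGF against 1/7MC+Pyr.

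Over all genes, DESeq2 called 283 higher and 619 lower in 1/7MC+Pyr+FGF against 1/7MC+Pyr, where edgeR called 89 and 295. Total counts alone gave 848 higher and 1762 lower in 1/7MC+Pyr against 1/7MC (1125 and 1400 with TMM), 1011 and 2691 in 1/7MC+Pyr+FGF against 1/7MC (1656 and 2186), and 1965 and 2513 in 1/7MC+Pyr+FGF against MC (2377 and 2150). Leaving out 1 library gave 127 (without 1/7MC+Pyr replicate 1) to 439 genes called in 1/7MC+Pyr+FGF against 1/7MC+Pyr, where 384 were called with all libraries, and 1423 (without 1/7MC+Pyr replicate 3) to 2252 in 1/7MC+Pyr against 1/7MC, where 2525 were. FAP had 1 to 5 counts in the MC libraries, so its fold changes over MC rest on few counts.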
